A study of Mus musculus with 8 samples.

Results

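In islets of ob/ob mice, 78 genes that averaged under 1 FPKM in ob/+ islets averaged at least 1 FPKM. FPKM is a transcript level per length and per library total. A gene was taken when its mean over the ob/ob libraries was also at least 2 times its ob/+ mean, and when every ob/ob library lay above every ob/+ library. Of 20715 listed genes, 17401 had a value and 5726 of these averaged under 1 FPKM in ob/+. The values alone selected 96 of these 5726 genes (1.68%), and 18 were then left out by symbol: 4 by name, which are Aldh1a3, Cck, Gast and Prss1, and 14 because the symbol starts with Cyp or Kcn or is that of a predicted Gm or Rik gene (Reg, Serpin and haemoglobin genes were barred as well, but none met the values). As the genes were chosen by this very contrast, their difference between the genotypes is described and not tested.

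The series holds pancreatic islet RNA from 12-week-old C57BL/6 mice, sequenced in 4 libraries of the genotype ob/ob and 4 of ob/+. The ob allele is a mutation of Lep, the gene of leptin, so ob/ob mice carry it on both copies and the ob/+ mice used as controls carry it on 1 copy. No transgene or Cre driver is named, and no sex. Whether a library stands for 1 mouse or for pooled islets of several is not given in the labels, so the spread given here is between libraries and can hold technical variation.

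Leptin is the fat cell hormone that restrains feeding, and mice without it overeat, become obese and insulin resistant, and enlarge their islets as beta cells make more insulin. Islets hold beta, alpha, delta and PP cells, with blood vessels, nerves and immune cells, and some exocrine tissue is usually carried along. Beta cells keep many genes of other tissues at very low levels, and a gene near the limit of detection can gain a little RNA from a few cells or from many. In bulk RNA, a change in the number of cells of a type and a change in RNA per cell cannot be told apart.

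The tissue label held: the summed level of a list of beta cell genes was 588290 to 711018 FPKM in ob/ob and 398445 to 502106 FPKM in ob/+, with the insulin gene Ins2 at 422742 to 503843 FPKM in ob/ob and 279293 to 356774 FPKM in ob/+. Lists of alpha cell markers (9066 to 12542 FPKM in ob/ob, 25521 to 31942 FPKM in ob/+) and of delta, PP and epsilon cell markers (3752 to 5913 FPKM in ob/ob, 12599 to 17238 FPKM in ob/+) were lower in every ob/ob library than in any ob/+ library. Most of the alpha cell sum was Gcg, at 7098 to 10056 FPKM in ob/ob and 23645 to 30500 FPKM in ob/+. Likewise, most of the beta cell sum was Ins1, Ins2 and Iapp. Single genes on the alpha and beta cell lists moved both ways, as counted further below. Acinar enzymes, the secretory products of exocrine cells, amounted to 6.41% ± 3.16 of the summed levels in the ob/ob libraries (SD, n = 4; range 3.04% to 10.7%) and to 13.4% ± 7.29 in the ob/+ libraries (SD, n = 4; range 7.02% to 23.7%). That difference gave p = 0.0857 in an exact two-sided permutation test over 70 assignments, in which 0.0286 is the smallest p possible. Total FPKM ran from 920734 to 1004230 in ob/ob and from 820968 to 880570 in ob/+, and 11363 to 11883 genes per library reached 1 FPKM. Counts were not among the values, so the depth behind each value is unknown. From the spacing of low values, 1 read on 1 kb of transcript was roughly 0.0504 to 0.0534 FPKM, so values of a few hundredths of an FPKM rest on very few reads.

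A name such as "switched on" fits few of the 78 genes. None was at 0 in all 4 ob/+ libraries, 71 were above 0 in every ob/+ library, and 17 reached 1 FPKM in at least 1 ob/+ library. The ob/+ mean was under 0.1 FPKM for 3 genes (Csn3, Abo and Mro), under 0.5 FPKM for 38 and from 0.5 FPKM up for 40. On the other side the levels stayed low: the ob/ob mean was under 2 FPKM for 51 genes, 2 to 3 FPKM for 15 and at least 3 FPKM for 12, of which 4 passed 5 FPKM. The median ob/ob mean was 1.69 FPKM and the median ob/+ mean 0.516 FPKM, and the ratio of the means had a median of 3.41, was at least 3 for 48 genes and at least 10 for 8.

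Summed over the 78 genes, the level was 169, 194, 175 and 157 FPKM in ob/ob libraries 1 to 4, against 43.0, 42.9, 46.4 and 36.1 FPKM in ob/+ libraries 1 to 4. Without Fosb, the one gene above 10 FPKM, the sum was 147 to 172 FPKM in ob/ob and 35.2 to 45.8 FPKM in ob/+. The sum without Fosb was highest in ob/ob 3. The opposite rule, with the genotypes exchanged, took 175 of 5806 genes (3.01%) before symbols were left out.

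**Figure D1:**
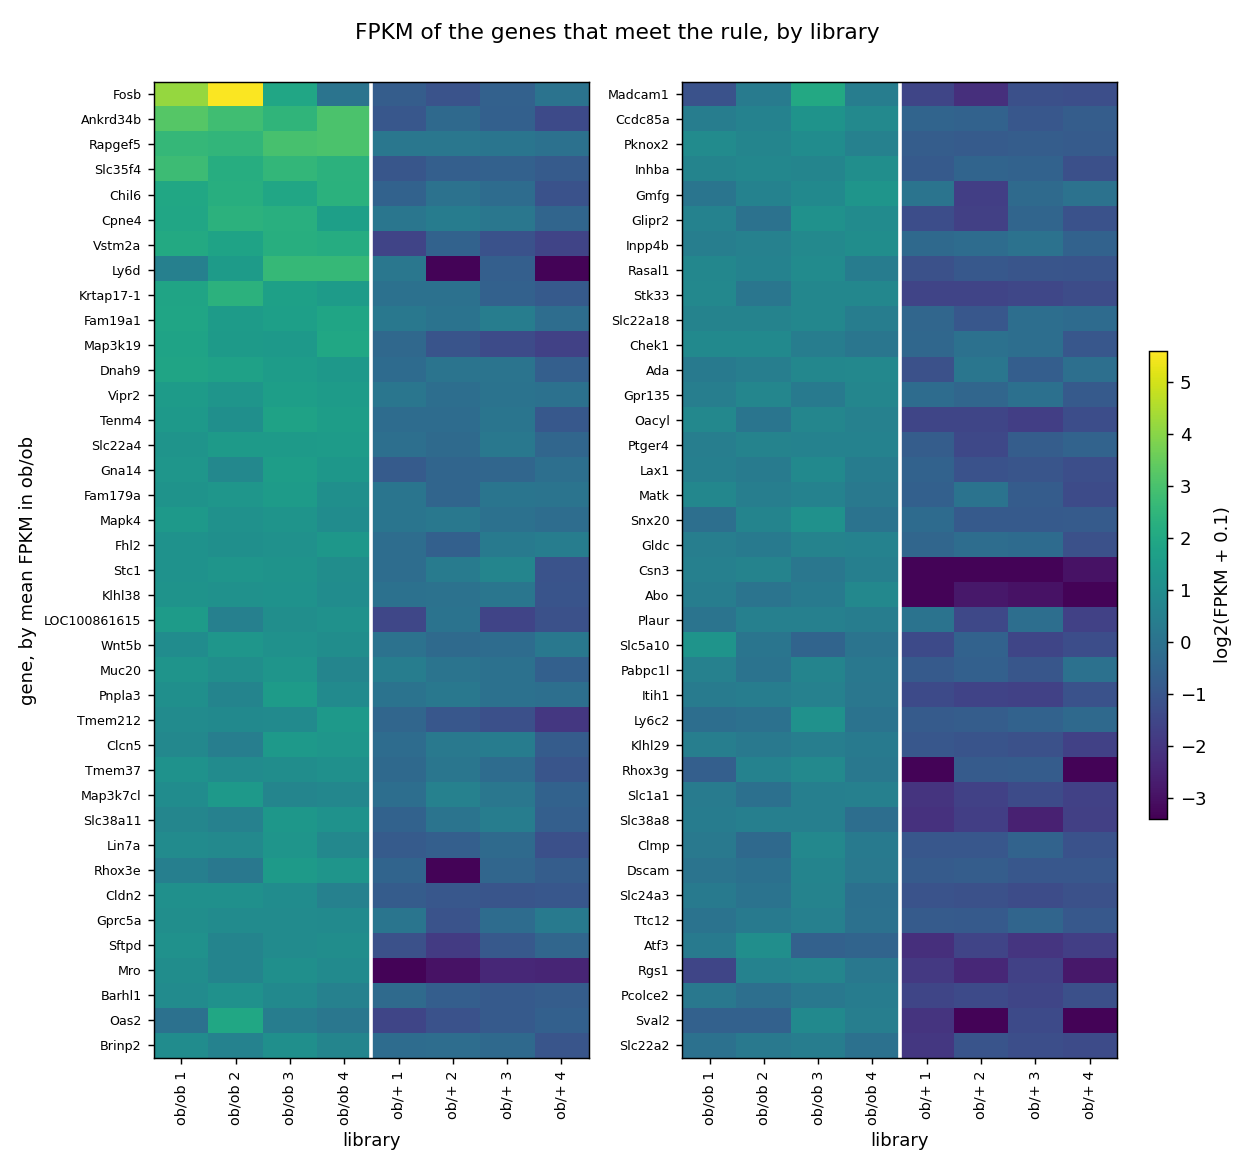
Heat map of the 78 genes (rows, by mean level in ob/ob, continued in the right panel) in the 8 libraries (columns, ob/ob left of the white line and ob/+ right of it); colour is log2(FPKM + 0.1). In every row the 4 ob/ob libraries are brighter than the 4 ob/+ libraries, as the rule requires, and in ob/+ most rows stay above the darkest colour that marks a value near 0.

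The first group by role is transcription factors and their cofactors, with 7 genes: Fosb, Atf3, Fhl2, Barhl1, Pknox2, Rhox3e and Rhox3g. In the following, 4 levels in a row are those of libraries 1 to 4 of a genotype, and means are given ± SD over the 4 libraries of each genotype (n = 4). Fosb, a subunit of the AP-1 transcription factor and an immediate early gene that many stimuli induce within minutes, was at 17.9, 47.1, 3.74 and 0.95 FPKM in ob/ob, against 0.50, 0.37, 0.56 and 0.92 FPKM in ob/+. The ob/ob libraries ranged from 0.95 to 47.1 FPKM, the widest spread of the 78 genes, and the lowest of them exceeded the highest ob/+ library by 0.03 FPKM. Without ob/ob 2 the ob/ob mean was 7.53 in place of 17.4 FPKM. Atf3, a stress-induced transcription factor that is also an immediate early gene, was at 1.11, 1.96, 0.55 and 0.61 FPKM in ob/ob, against 0.12, 0.24, 0.15 and 0.20 FPKM in ob/+. Both genes had their highest level in ob/ob 2 and the next in ob/ob 1.

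Fos, the founding subunit of AP-1 and not among the 78, was at 94.3, 167, 36.6 and 14.1 FPKM in ob/ob, against 7.03, 6.22, 6.93 and 3.19 FPKM in ob/+. Egr1, a zinc finger factor of the same early response, was at 79.8, 134, 30.6 and 16.4 FPKM in ob/ob, against 12.8, 7.58, 19.1 and 7.03 FPKM in ob/+. Both had the same libraries on top as Fosb and Atf3, ob/ob 2 and then ob/ob 1; the genotypes did not overlap for Fos and overlapped for Egr1. Fos differed by 3.05 ± 0.78 (SE) on the log2(FPKM + 1) scale (limma, adjusted p = 0.0425), a call that held in 9 of 17 alternative settings. It ended with the replicate block and without any 1 library other than ob/ob 4, with adjusted p of 0.0531 to 0.117. Egr1 had an adjusted p of 0.105 and Jun, the subunit that pairs with Fos, a log2 difference of 2.42 ± 0.67 (SE) with an adjusted p of 0.0553 (limma). A list of immediate early and CREB target genes held Fosb, Atf3 and 16 other genes that could be tested, and of the 16, 3 rose (Fos, Nr4a2 and Crem) and 1 fell (Npas4), with a median log2 difference of 0.60. Over all 11747 tested genes limma called 18.8%, 8.21% higher and 10.6% lower, and the median was −0.07. Nr4a2, an orphan nuclear receptor, rose by 0.54 ± 0.15, and Crem, a cAMP-responsive regulator, by 0.44 ± 0.13 (log2 ± SE; limma, adjusted p = 0.0128 and 0.0146). Both calls ended under scaling to the sum without acinar markers (adjusted p = 0.050035 for Nr4a2 and 0.132 for Crem; limma). Npas4, the calcium-induced factor of excitable cells, fell by 1.64 ± 0.36 on the log2 scale (limma, adjusted p = 0.0222), at 0.75, 1.22, 0.33 and 0.26 FPKM in ob/ob, against 4.33, 6.49, 4.88 and 1.64 FPKM in ob/+. Its levels in ob/ob 1 and 2 were above those in ob/ob 3 and 4, and the call ended without ob/ob 1, 3 or 4 or without ob/+ 1 or 3 (adjusted p = 0.0597 to 0.0804; limma). The summed level of the list outside the 2 members was 574, 732, 292 and 258 FPKM in ob/ob and 212, 152, 224 and 86.6 FPKM in ob/+. Each ob/ob library thus lay above each ob/+ library in this sum, and ob/ob 1 and 2 stood above ob/ob 3 and 4. Much of the sum was Rgs2, which limma did not call (adjusted p = 0.210). Rgs2 was at 185, 108, 86.6 and 142 FPKM in ob/ob, against 93.3, 47.0, 92.9 and 18.3 FPKM in ob/+. Without Rgs2, the sum in ob/ob 4 lay below those in ob/+ 1 and ob/+ 3, so the genotypes overlapped. What sets ob/ob 1 and 2 apart was not tested.

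**Figure D2:**
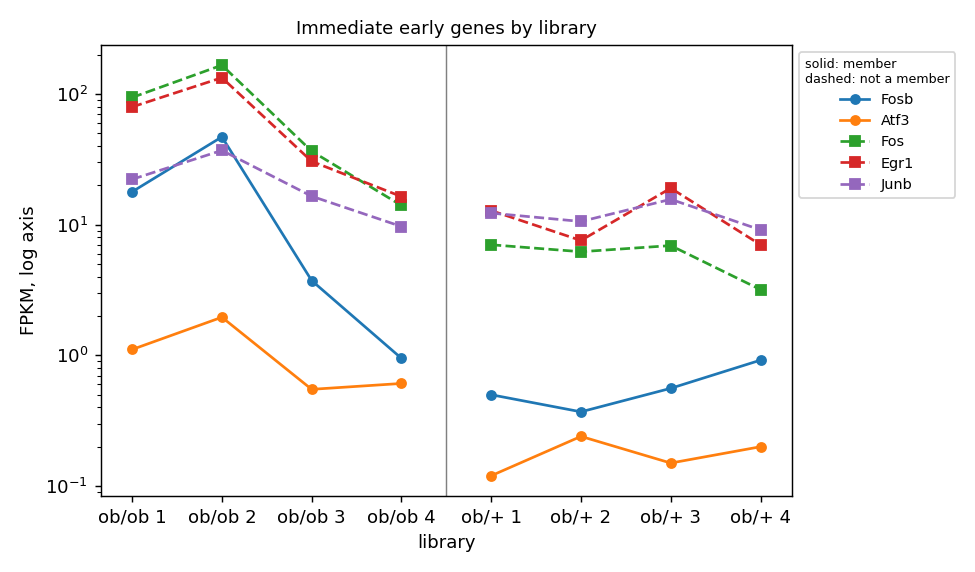
FPKM on a log axis of 2 of the 78 genes (solid lines, Fosb and Atf3) and 3 other immediate early genes (dashed lines) in the 8 libraries, ob/ob left of the vertical line and ob/+ right of it; lines join values of one gene and carry no order in time. Fosb, Atf3, Fos and Egr1 are highest in ob/ob 2, then in ob/ob 1, and Fosb in ob/ob 4 is at 0.95 FPKM beside 0.92 FPKM in ob/+ 4.

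The 250 bases before the annotated start of Fosb and of Atf3 are printed because both genes are textbook targets of cAMP signalling; TGACG or its reverse complement CGTCA, the core of the cAMP response element, is in capitals. Sequences are from RefSeq on GRCm38.p6, 5′ to 3′ on the strand of the gene, ending at the base before the first-listed start. Fosb lies at chr7:19310046-19310295 (minus strand) and Atf3 at chr1:191183334-191183583 (minus strand). The stretch of Atf3 lies inside the GENCODE span of the gene, chr1:191170296-191218039, so the start used for it is not the outermost one.
Fosb: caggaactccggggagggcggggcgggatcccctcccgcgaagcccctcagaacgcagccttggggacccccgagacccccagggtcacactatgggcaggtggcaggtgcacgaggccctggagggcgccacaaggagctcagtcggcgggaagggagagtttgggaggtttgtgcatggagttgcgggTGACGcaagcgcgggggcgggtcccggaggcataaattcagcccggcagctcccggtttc
Atf3: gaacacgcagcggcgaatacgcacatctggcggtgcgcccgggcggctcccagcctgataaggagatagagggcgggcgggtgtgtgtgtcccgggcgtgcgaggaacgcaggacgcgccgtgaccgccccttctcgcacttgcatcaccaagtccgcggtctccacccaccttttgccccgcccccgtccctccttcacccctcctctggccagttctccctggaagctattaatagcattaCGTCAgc
The match lies at −60 to −56 in Fosb and at −7 to −3 in Atf3, counted from the base before the start. Of the 78 genes, 55 had a promoter in the table, and 11 of those 55 (20%) held this core, against 17.9% of 27025 promoters of all genes. The core was also in the promoters of 16.7% of 2071 other genes with an ob/+ mean of 0.1 to 1 FPKM and of 27.8% of 9064 other tested genes. A match of letters is a description and no evidence that a factor binds there.

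Fhl2, a LIM domain cofactor of transcription, was at 2.2, 2.02, 2.15 and 2.48 FPKM in ob/ob, against 0.78, 0.54, 1.15 and 1.23 FPKM in ob/+. Barhl1, a homeobox factor of neural development, averaged 1.76 ± 0.317 FPKM in ob/ob and 0.542 ± 0.114 FPKM in ob/+. Pknox2, a homeobox factor of the TALE class, averaged 1.65 ± 0.228 FPKM in ob/ob and 0.485 ± 0.0173 FPKM in ob/+. For these 3 genes the ob/ob libraries lay close together, from 2.02 to 2.48 FPKM for Fhl2, 1.37 to 2.14 FPKM for Barhl1 and 1.38 to 1.85 FPKM for Pknox2. Rhox3e and Rhox3g are reproductive homeobox genes of chromosome X that lie 72.2 kb apart and which are near-identical copies, so reads could be split or shared between them and their levels are uncertain. Rhox3e was at 1.06 to 2.75 FPKM in ob/ob and 0 to 0.64 FPKM in ob/+, and Rhox3g at 0.52 to 1.70 FPKM in ob/ob and 0 to 0.48 FPKM in ob/+.

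Secreted proteins made up 13 of the 78 genes, the largest group with a named role. Chil6, a chitinase-like protein of the family that mouse macrophages and epithelia secrete, had the highest level of them at 3.78, 4.58, 3.74 and 4.93 FPKM in ob/ob, against 0.58, 0.90, 0.75 and 0.36 FPKM in ob/+. Vstm2a, a secreted immunoglobulin-domain protein described in fat cell precursors, was at 4.07, 3.47, 4.61 and 4.43 FPKM in ob/ob, against 0.24, 0.57, 0.36 and 0.24 FPKM in ob/+, an 11.8-fold ratio of the means. The genotypes stood well apart for both: the lowest ob/ob library was 2.84 FPKM above the highest ob/+ library for Chil6 and 2.90 FPKM for Vstm2a. Chil6 belongs to a cluster of closely similar genes, so its level is uncertain to that extent.

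Fam19a1, a small secreted protein of the brain also called TAFA1, was at 3.65, 2.79, 3.1 and 3.64 FPKM in ob/ob, against 1.04, 0.92, 1.24 and 0.78 FPKM in ob/+ and lay nearest to the upper limit for ob/+, with a mean of 0.995 FPKM. Stc1, stanniocalcin, a secreted glycoprotein of calcium and phosphate balance, was at 2.18, 2.37, 2.23 and 1.91 FPKM in ob/ob, against 0.78, 1.16, 1.52 and 0.37 FPKM in ob/+. Its ob/+ libraries spread from 0.37 to 1.52 FPKM, more than its ob/ob libraries, which lay between 1.91 and 2.37 FPKM. Wnt5b, a ligand of the Wnt pathway, was at 1.89, 2.42, 2.1 and 1.9 FPKM in ob/ob, against 0.90, 0.72, 0.76 and 1.05 FPKM in ob/+. Muc20, a mucin, was at 2.31, 1.99, 2.38 and 1.53 FPKM in ob/ob, against 1.23, 0.94, 0.87 and 0.54 FPKM in ob/+, but 15.6% of its exonic bases overlap Muc4 on the opposite strand, which averaged 23.0 FPKM in ob/ob and 9.80 FPKM in ob/+. Whether counting used the strand is not given in the sources, and without it reads of the 2 genes there cannot be told apart.

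Csn3, kappa casein of milk, came closest to an on and off pattern, at 1.35, 1.45, 1.02 and 1.31 FPKM in ob/ob, against 0, 0, 0 and 0.03 FPKM in ob/+. In ob/+ it was listed at 0 in 3 libraries, and the 0.03 FPKM in ob/+ 4 is below the rough value of 1 read on 1 kb. Sval2, a secreted protein of the seminal vesicle antigen family, was at 0.55, 0.56, 1.71 and 1.28 FPKM in ob/ob, against 0.14, 0, 0.28 and 0 FPKM in ob/+. Its ob/ob libraries 1 and 2 lay well below ob/ob 3 and 4, and 2 ob/+ libraries were at 0. Inhba, the activin A subunit of the TGF-beta family, was steadier, at 1.64 ± 0.225 FPKM in ob/ob and 0.492 ± 0.126 FPKM in ob/+. The others were Sftpd, a lung collectin also called surfactant protein D (1.84 ± 0.268 FPKM in ob/ob and 0.403 ± 0.192 FPKM in ob/+), Brinp2, a neural protein inducible by BMP and retinoic acid (1.41 to 2.02 FPKM in ob/ob, 0.39 to 0.79 FPKM in ob/+), Itih1, an inter-alpha-trypsin inhibitor heavy chain of the liver (1.02 to 1.36 FPKM in ob/ob, 0.22 to 0.36 FPKM in ob/+), and Pcolce2, an enhancer of procollagen processing (0.82 to 1.21 FPKM in ob/ob, 0.25 to 0.33 FPKM in ob/+).

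Inhba was the single member on a list of growth factor and cytokine ligands. Of the 23 tested ligands that were not members, 9 rose and 4 fell (56.5% called, against 18.8% of all tested genes, of which 8.21% rose and 10.6% fell), and the median log2 difference was −0.08. Fgf1, a fibroblast growth factor without a classical signal peptide, rose by 1.34 ± 0.13 (SE), Egf, the ligand of the EGF receptor, by 1.17 ± 0.11 (SE), and Fgf9 by 0.79 ± 0.12 (SE), all on the log2 scale (limma, adjusted p = 1.73e-08, 2.63e-08 and 2.43e-05). Gdf10, a TGF-beta family ligand, fell by 1.43 ± 0.13 (log2 ± SE; limma, adjusted p = 1.33e-08). Inhbb, which encodes the activin B subunit, differed by 0.39 ± 0.13 (SE) (limma, adjusted p = 0.0296), a call that 11 of 16 alternative settings kept and that ended without ob/ob 2 or 3, without ob/+ 1 or 2 and under scaling without acinar markers (adjusted p = 0.0534 to 0.130; limma). Leaving out each library or changing the scaling did not end the calls of Fgf1, Egf, Fgf9 or Gdf10 in any of 17 settings.

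**Figure D3:**
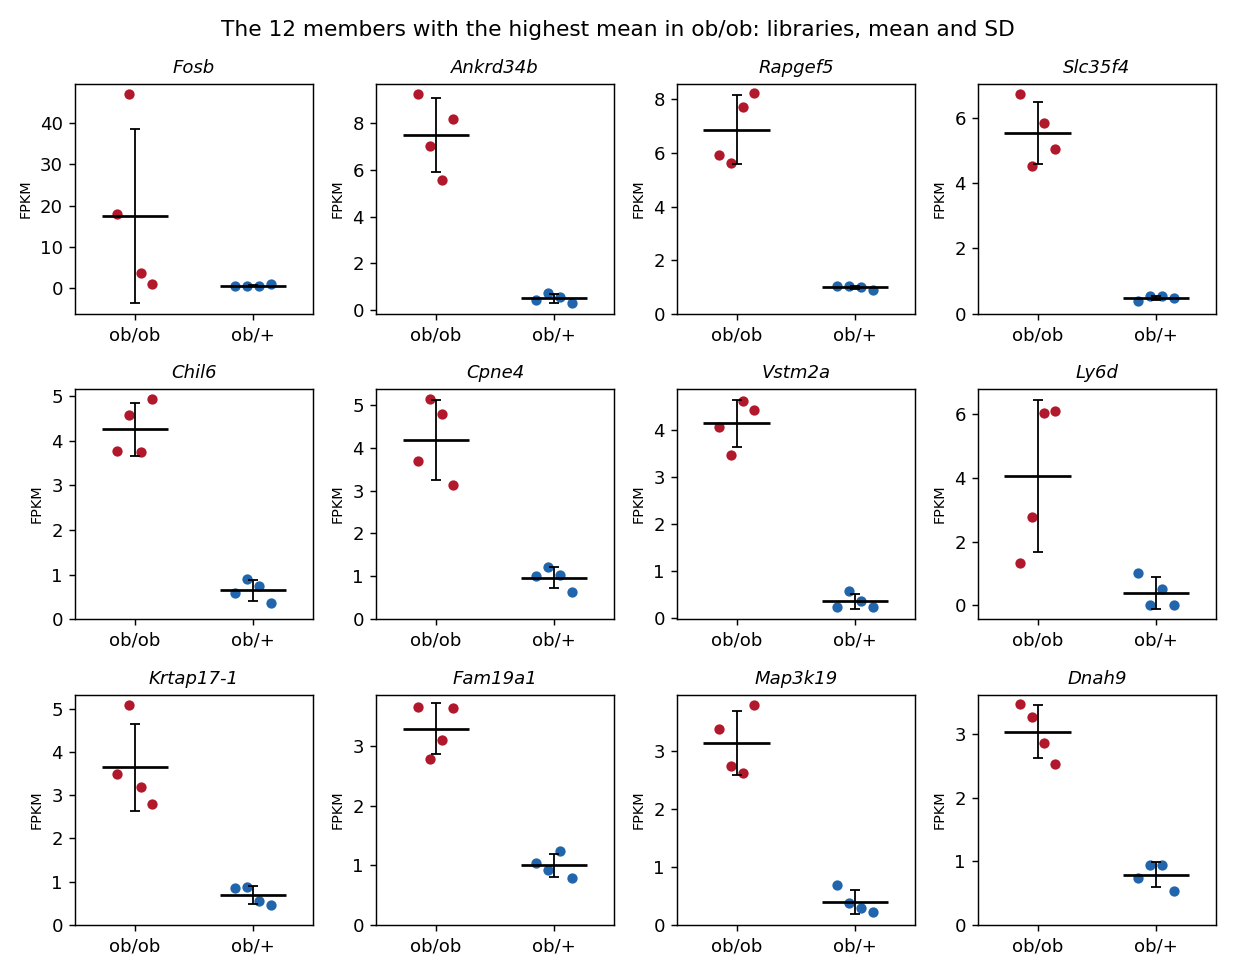
FPKM of the 12 genes with the highest mean in ob/ob, ob/ob left and ob/+ right in each panel; points are the 4 libraries, the wide line is the mean and the bar the SD. The points of ob/ob lie above those of ob/+ in each panel, with a gap of 4.86 FPKM for Ankrd34b and of 0.03 FPKM for Fosb; axes differ between panels.

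Receptors and other surface proteins numbered 12. Vipr2, the VPAC2 receptor for VIP and PACAP that raises cAMP and is known to increase insulin secretion, was at 2.83, 2.36, 3.05 and 2.78 FPKM in ob/ob, against 1.01, 0.81, 0.92 and 0.87 FPKM in ob/+ (chr12:116077726-116146261, plus strand). Its libraries lay close together within each genotype, with SDs of 0.288 and 0.0846 FPKM in ob/ob and ob/+. The gene of one of its ligands moved the other way: Vip was at 0.29, 1.8, 5.01 and 2.52 FPKM in ob/ob, against 24.2, 21.5, 35.7 and 20.4 FPKM in ob/+, a log2 difference of −3.13 ± 0.49 (SE) (limma, adjusted p = 0.00582). Ptger4, the EP4 receptor for prostaglandin E2, which also raises cAMP, averaged 1.38 ± 0.0918 FPKM in ob/ob and 0.463 ± 0.136 FPKM in ob/+. Gprc5a, an orphan receptor known as retinoic acid-induced, averaged 1.85 ± 0.0900 FPKM in ob/ob and 0.810 ± 0.336 FPKM in ob/+, with ob/ob libraries from 1.78 to 1.98 FPKM and ob/+ libraries from 0.37 to 1.15 FPKM. Gpr135, another orphan receptor, averaged 1.39 ± 0.216 FPKM in ob/ob and 0.675 ± 0.173 FPKM in ob/+.

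Adhesion and junction proteins among the 12 were Tenm4, Cldn2, Clmp and Dscam. Tenm4, a teneurin of neural wiring, was at 2.58, 2.01, 3.37 and 2.98 FPKM in ob/ob, against 0.75, 0.77, 0.96 and 0.43 FPKM in ob/+. Cldn2, the claudin that makes tight junctions leaky to cations and water, averaged 1.85 ± 0.326 FPKM in ob/ob and 0.422 ± 0.0395 FPKM in ob/+. Clmp, a tight junction adhesion molecule, was at 0.69 to 1.65 FPKM in ob/ob and 0.36 to 0.59 FPKM in ob/+, and Dscam, a neural adhesion molecule, at 0.85 to 1.48 FPKM in ob/ob and 0.41 to 0.50 FPKM in ob/+. Plaur, the urokinase receptor of leukocytes and injured epithelia, was at 0.94 to 1.35 FPKM in ob/ob and 0.22 to 0.92 FPKM in ob/+, a gap of 0.02 FPKM between the groups.

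Several of the 78 genes are known from immune cells or, as Madcam1, from vessels that lymphocytes bind, and for some of them the ob/ob libraries differed widely. Ly6d, a surface protein of early B lineage cells and of squamous epithelia, was at 1.34, 2.78, 6.04 and 6.11 FPKM in ob/ob, against 1.03, 0, 0.52 and 0 FPKM in ob/+. Madcam1, the addressin that lymphocytes bind in mucosal vessels, was at 0.36, 1.16, 3.98 and 1.23 FPKM in ob/ob, against 0.25, 0.12, 0.33 and 0.32 FPKM in ob/+, and without ob/ob 3 its ob/ob mean was 0.917 in place of 1.68 FPKM. Rgs1, a regulator of G protein signalling abundant in lymphocytes, was at 0.25, 1.4, 1.52 and 1.04 FPKM in ob/ob, against 0.17, 0.09, 0.22 and 0.04 FPKM in ob/+. In ob/ob 1 Madcam1 and Rgs1 were near their ob/+ levels, and Ly6d was 0.31 FPKM above its highest ob/+ library. Ly6c2, a marker of monocytes and some T cells with near-identical neighbours, was at 0.81, 0.88, 2.15 and 0.91 FPKM in ob/ob, against 0.47, 0.50, 0.58 and 0.69 FPKM in ob/+, highest in ob/ob 3. Gmfg, an actin regulator of blood cells, was at 0.97 to 2.36 FPKM in ob/ob and 0.20 to 0.95 FPKM in ob/+, Snx20, a sorting nexin of leukocytes, at 0.83 to 2.11 FPKM in ob/ob and 0.45 to 0.73 FPKM in ob/+, and Lax1, an adaptor of lymphocyte receptors, at 1.18 to 1.75 FPKM in ob/ob and 0.32 to 0.58 FPKM in ob/+.

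Several markers of B cells and plasma cells were also highest in ob/ob 3 and lowest in ob/ob 1 among the ob/ob libraries, while between the genotypes they did not move one way. That order is common: of 5920 other genes with an ob/ob mean of 1 to 8 FPKM, 59.7% were highest in ob/ob 3. In ob/ob 1, 36.7% of the 5920 were lowest. Ms4a1, which encodes CD20, was at 0, 1.67, 6.04 and 4.17 FPKM in ob/ob, against 0.90, 0.03, 0.42 and 0.05 FPKM in ob/+. Jchain, the joining chain of secreted antibody, was at 0.29, 1.73, 21.6 and 13.1 FPKM in ob/ob, against 2.12, 0.06, 1.07 and 0.19 FPKM in ob/+. In ob/ob 1 Ms4a1 was at 0. Cd79a, a subunit of the B cell receptor, was at 2.18, 6.34, 17.6 and 10.7 FPKM in ob/ob, against 15.1, 7.81, 16.8 and 11.6 FPKM in ob/+, a log2 difference of −0.66 ± 0.58 (SE) (limma, adjusted p = 0.499). Ms4a1 and Jchain averaged higher in ob/ob and Cd79a lower. The genotypes overlapped for all 3 markers. In ob/+ Ms4a1 and Jchain were highest in ob/+ 1 and Cd79a in ob/+ 3; Ly6d was highest in ob/+ 1 among the ob/+ libraries. The summed level of the lymphocyte and plasma cell list was 3.0, 14.7, 64.0 and 37.3 FPKM in ob/ob and 21.3, 8.71, 20.5 and 12.3 FPKM in ob/+. Most of each ob/+ sum was Cd79a alone (15.1, 7.81, 16.8 and 11.6 FPKM), so the sums hide how the other markers on the list differed between the genotypes. Of the 12 genes on this list 10 entered the sum and 3 reached the expression limit for a test, of which limma called 0 (0 at an unadjusted p under 0.05). The part of lymphocytes in the levels of Ly6d, Madcam1, Rgs1, Snx20 and Ly6c2 was not tested. On the list of macrophage and myeloid markers limma called 0 of 13 (2 at an unadjusted p under 0.05), with sums of 128 to 308 FPKM in ob/ob and 185 to 293 FPKM in ob/+.

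**Figure D4:**
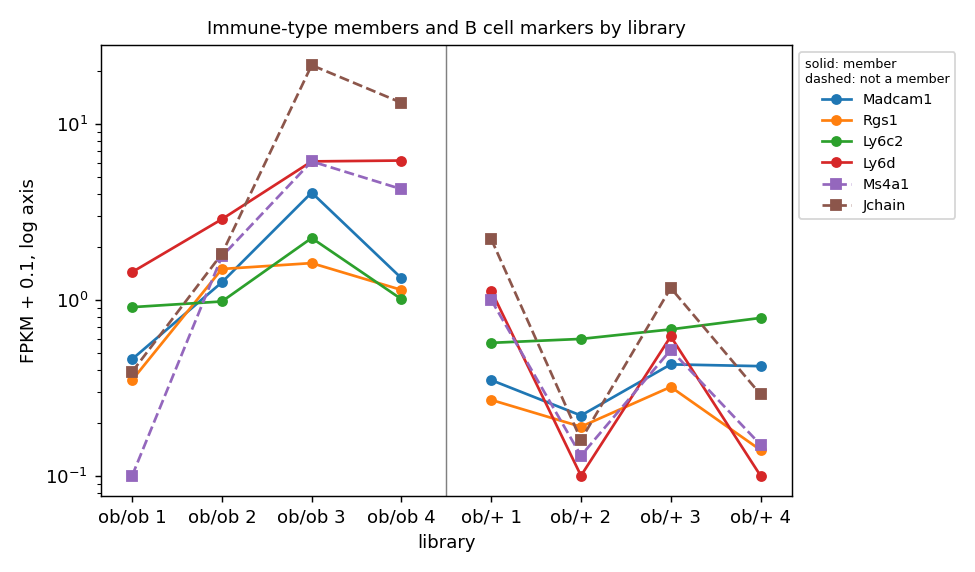
FPKM + 0.1 on a log axis in the 8 libraries, ob/ob left of the vertical line and ob/+ right of it. Solid lines are 4 of the 78 genes: Ly6d, Rgs1 and Ly6c2, known from immune cells, and Madcam1, known from vessels that lymphocytes bind. Dashed lines are 2 B cell and plasma cell markers. Lines join values of one gene and carry no order. Jchain, Ms4a1, Madcam1, Rgs1 and Ly6c2 are highest in ob/ob 3, and Ly6d, at 6.04 FPKM there, has its highest level of 6.11 FPKM in ob/ob 4.

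Signalling proteins made up another 12 genes. Rapgef5, an exchange factor that activates the small GTPase Rap, was the most abundant of them at 5.93, 5.63, 7.7 and 8.22 FPKM in ob/ob, against 1.03, 1.03, 0.98 and 0.88 FPKM in ob/+ (chr12:117516479-117759737, plus strand). Its ob/+ mean of 0.980 FPKM stood just below the limit of 1, and ob/ob libraries 3 and 4 were above ob/ob 1 and 2. Gna14, an alpha subunit of the Gq class that couples receptors to phospholipase C, was at 2.41, 1.64, 2.98 and 2.5 FPKM in ob/ob, against 0.47, 0.62, 0.64 and 0.83 FPKM in ob/+. Map3k19, a protein kinase of the stress kinase family, was at 3.39, 2.74, 2.63 and 3.8 FPKM in ob/ob, against 0.68, 0.38, 0.29 and 0.22 FPKM in ob/+, with ob/+ 1 at the top of its group. Mapk4, the atypical kinase ERK4, was at 2.68, 2.11, 2.29 and 1.88 FPKM in ob/ob, against 0.96, 1.05, 0.88 and 0.79 FPKM in ob/+. Map3k7cl, a short relative of the kinase TAK1, was at 1.88, 2.67, 1.51 and 1.61 FPKM in ob/ob, against 0.81, 1.38, 1.02 and 0.57 FPKM in ob/+ and had the smallest ratio of all members at 2.03.

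The other signalling genes were lower and mostly even between libraries. Rasal1, a calcium-responsive GTPase activator of Ras, averaged 1.5 ± 0.260 FPKM in ob/ob and 0.385 ± 0.0370 FPKM in ob/+, and Inpp4b, a phosphatase of inositol lipids, 1.56 ± 0.308 FPKM in ob/ob and 0.730 ± 0.136 FPKM in ob/+. Stk33, a kinase, was at 1.01 to 1.66 FPKM in ob/ob and 0.24 to 0.30 FPKM in ob/+. Matk, a relative of the kinase Csk, was at 1.09 to 1.62 FPKM in ob/ob and 0.29 to 0.92 FPKM in ob/+. Chek1, the checkpoint kinase of DNA replication, averaged 1.42 ± 0.370 FPKM in ob/ob and 0.693 ± 0.200 FPKM in ob/+ with a ratio of 2.04. Chek1 is known to be transcribed in dividing cells. Of 17 tested genes on a cell cycle list 2 rose and 0 fell (3 of the 17 at an unadjusted p under 0.05). The called share was 11.8%, all higher, against 18.8% of all tested genes, with 8.21% higher and 10.6% lower. The 2 genes were Rrm2, a ribonucleotide reductase subunit (0.92 ± 0.13 (SE)), and E2f1, a factor that turns on genes of DNA synthesis (0.71 ± 0.12 (SE)). These values are log2 differences with adjusted p of 1.15e-05 and 0.000127 (limma).

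Of 11 transporters and channels, Slc35f4 stood out by level. This membrane protein of the nucleotide sugar transporter family, without a substrate stated here, was at 6.74, 4.53, 5.84 and 5.06 FPKM in ob/ob, against 0.40, 0.53, 0.55 and 0.47 FPKM in ob/+, an 11.4-fold ratio of the means. Slc22a4, a transporter of ergothioneine and carnitine, was at 2.31, 2.75, 2.73 and 2.8 FPKM in ob/ob, against 0.82, 0.72, 1.06 and 0.64 FPKM in ob/+. Clcn5, a chloride and proton exchanger of endosomes, was at 1.66, 1.27, 2.68 and 2.42 FPKM in ob/ob, against 0.75, 1.07, 1.19 and 0.48 FPKM in ob/+. In Slc35f4 the lowest ob/ob library was 3.98 FPKM above the highest ob/+ library, whereas in Clcn5 the gap was 0.08 FPKM. Tmem37, described as a calcium channel subunit-like protein, was at 2.2, 1.8, 1.91 and 2.08 FPKM in ob/ob, against 0.69, 0.99, 0.75 and 0.39 FPKM in ob/+. Slc38a11, an amino acid transporter family member, was at 1.55, 1.37, 2.46 and 2.16 FPKM in ob/ob, against 0.58, 0.95, 1.23 and 0.52 FPKM in ob/+, and its relative Slc38a8 averaged 1.15 ± 0.237 FPKM in ob/ob and 0.152 ± 0.0655 FPKM in ob/+. Slc38a8 was thus among the 9 genes with an ob/+ mean under 0.25 FPKM.

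Slc1a1, the neuronal glutamate transporter EAAT3, averaged 1.16 ± 0.229 FPKM in ob/ob and 0.217 ± 0.0613 FPKM in ob/+, but 31.9% of its exonic bases overlap an antisense predicted gene that averaged 1.48 FPKM in ob/ob and 0.848 FPKM in ob/+. Slc5a10, a sugar transporter of the kidney, was at 2.31 FPKM in ob/ob 1 and 0.61 to 0.98 FPKM in the other ob/ob libraries, against 0.25 to 0.57 FPKM in ob/+. Part of its exons (16.6%) lies opposite Fam83g, which averaged 3.56 FPKM in ob/ob and 6.45 FPKM in ob/+. Slc22a2, an organic cation transporter of the kidney, averaged 1.01 ± 0.182 FPKM in ob/ob and 0.287 ± 0.0929 FPKM in ob/+. Slc22a18, of the same family by name, averaged 1.43 ± 0.160 FPKM in ob/ob and 0.652 ± 0.167 FPKM in ob/+. Slc24a3, a sodium, calcium and potassium exchanger, was at 0.85 to 1.45 FPKM in ob/ob and 0.30 to 0.37 FPKM in ob/+.

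Enzymes numbered 6. Pnpla3, an acyl hydrolase of lipid droplets that carbohydrate feeding is known to induce in liver, was at 2.0, 1.49, 2.82 and 1.76 FPKM in ob/ob, against 0.91, 1.05, 0.87 and 0.82 FPKM in ob/+. Abo, the glycosyltransferase of the ABO blood group system, was at 1.23, 0.94, 1.1 and 1.64 FPKM in ob/ob, against 0, 0.04, 0.03 and 0 FPKM in ob/+, with 2 ob/+ libraries at 0. Oas2, an interferon-induced synthetase of oligoadenylates, was at 0.88, 3.75, 1.24 and 1.03 FPKM in ob/ob, against 0.25, 0.36, 0.46 and 0.54 FPKM in ob/+. Of the Oas2 libraries ob/ob 2 stood apart, and without it the ob/ob mean was 1.05 in place of 1.73 FPKM. Ada, adenosine deaminase, averaged 1.41 ± 0.269 FPKM in ob/ob and 0.667 ± 0.298 FPKM in ob/+, Gldc, of the glycine cleavage system, 1.31 ± 0.141 FPKM in ob/ob and 0.632 ± 0.197 FPKM in ob/+, and Oacyl, an acyltransferase-like membrane protein, 1.39 ± 0.298 FPKM in ob/ob and 0.253 ± 0.0450 FPKM in ob/+.

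The promoter of Pnpla3 is shown as the one of the 55 that holds the full palindrome TGACGTCA, in capitals, which 1.62% of all promoters hold. It lies at −46 to −39 from the start on chr15:84167566-84167815, plus strand.
Pnpla3: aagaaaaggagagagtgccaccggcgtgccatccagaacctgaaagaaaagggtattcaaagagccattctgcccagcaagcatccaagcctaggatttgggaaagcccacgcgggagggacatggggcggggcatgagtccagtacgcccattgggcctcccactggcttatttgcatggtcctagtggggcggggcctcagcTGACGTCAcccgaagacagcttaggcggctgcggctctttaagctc
Among the ob/ob libraries Pnpla3 was highest in ob/ob 3 and lowest in ob/ob 2, whereas Fosb and Atf3 were highest in ob/ob 2. Any role of the palindrome in the level of Pnpla3 was not tested.

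Interferon-induced genes outside the 78 gave the following counts. Of 15 tested interferon-stimulated genes, 2 rose and 0 fell (4 at an unadjusted p under 0.05), with a median log2 difference of 0.15. The called share was 13.3%, all higher, against 18.8% of all tested genes, with 8.21% higher and 10.6% lower. Usp18, a protease that removes ISG15 from proteins, rose by 1.04 ± 0.13 (SE) and Ifi27 by 0.55 ± 0.13 (SE) on the log2 scale (limma, adjusted p = 2.24e-06 and 0.00369), of which the call of Ifi27 ended under scaling without acinar markers (adjusted p = 0.0555). The list's summed level in ob/ob ran from 75.1 to 131 FPKM, highest in ob/ob 2, and in ob/+ from 63.1 to 70.7 FPKM. Ifit3, an interferon-induced antiviral protein, was at 0.78, 4.48, 0.76 and 1.74 FPKM in ob/ob, against 1.42, 1.23, 1.47 and 1.85 FPKM in ob/+, so ob/ob 2 was also the highest library for a gene whose genotypes overlapped. The part of an interferon response in that single library in the mean of Oas2 was not tested.

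The remaining 17 genes have other or little-known roles. Ankrd34b, an ankyrin repeat protein, had the second-highest level of the 78 genes at 9.26, 7.04, 5.56 and 8.2 FPKM in ob/ob, against 0.42, 0.70, 0.54 and 0.28 FPKM in ob/+ (chr13:92425896-92441658, plus strand). The gap between its groups, 4.86 FPKM, was the widest of the 78, and the ratio of its means was 15.5. Cpne4, a copine that binds membranes with calcium, was at 3.7, 5.14, 4.78 and 3.13 FPKM in ob/ob, against 1.01, 1.21, 1.02 and 0.63 FPKM in ob/+. Krtap17-1, a keratin-associated protein of hair from a large family of similar genes, was at 3.5, 5.1, 3.2 and 2.8 FPKM in ob/ob, against 0.86, 0.87, 0.55 and 0.45 FPKM in ob/+. Among those genes just outside the rule was a relative, Krtap16-1, at a mean of 2.26 FPKM in ob/ob and 1.02 FPKM in ob/+.

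The 250 bases before the start are shown for 2 abundant members of unlike composition, Ankrd34b (CpG observed over expected 0.737) and Chil6 (no CpG). Capitals mark CGTCA in Ankrd34b, at −201 to −197 and −10 to −6, and the TATA box letters TATAAA in Chil6, at −204 to −199. Ankrd34b is at chr13:92425719-92425968, plus strand, and Chil6 at chr3:106406183-106406432, minus strand. The GENCODE span of Ankrd34b begins at chr13:92425896, before the RefSeq start used here, so the match at −10 to −6 lies inside that span.
Ankrd34b: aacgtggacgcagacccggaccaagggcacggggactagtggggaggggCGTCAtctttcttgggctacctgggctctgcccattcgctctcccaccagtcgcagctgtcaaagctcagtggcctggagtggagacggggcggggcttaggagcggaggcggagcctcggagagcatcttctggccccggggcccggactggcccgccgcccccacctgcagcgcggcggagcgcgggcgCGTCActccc
Chil6: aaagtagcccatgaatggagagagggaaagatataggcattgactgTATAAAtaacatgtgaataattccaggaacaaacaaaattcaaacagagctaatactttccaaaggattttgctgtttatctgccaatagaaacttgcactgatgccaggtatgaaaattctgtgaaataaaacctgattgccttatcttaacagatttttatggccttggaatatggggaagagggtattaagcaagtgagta
TATAAA on either strand was found in 6 of the 55 promoters (10.9%), against 13.0% of all promoters. Other genes with an ob/+ mean of 0.1 to 1 FPKM stood at 10.7% and other tested genes at 6.01%.

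Genes of motile cilia or of the cytoskeleton were among the 17. Dnah9, a heavy chain of the outer dynein arms of motile cilia, was at 3.48, 3.28, 2.87 and 2.54 FPKM in ob/ob, against 0.74, 0.94, 0.94 and 0.53 FPKM in ob/+. Ttc12, which is needed to assemble dynein arms, was at 0.87 to 1.33 FPKM in ob/ob and 0.43 to 0.62 FPKM in ob/+. Fam179a, a protein with tubulin-binding TOG domains, was at 2.22, 2.41, 2.81 and 2.04 FPKM in ob/ob, against 0.98, 0.63, 0.97 and 0.95 FPKM in ob/+. Klhl38 and Klhl29 are kelch-like proteins: Klhl38 was at 2.26, 2.11, 2.19 and 1.85 FPKM in ob/ob, against 0.86, 0.89, 0.99 and 0.38 FPKM in ob/+, and Klhl29 averaged 1.18 ± 0.0872 FPKM in ob/ob and 0.338 ± 0.0834 FPKM in ob/+. The SD of Klhl38 over the ob/ob libraries was 0.179 FPKM. Lin7a, a PDZ scaffold of cell polarity, averaged 1.88 ± 0.311 FPKM in ob/ob and 0.510 ± 0.161 FPKM in ob/+.

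Little is known of several of the rest. Mro, named maestro, was at 1.93, 1.49, 2.03 and 1.76 FPKM in ob/ob, against 0, 0.03, 0.09 and 0.08 FPKM in ob/+ and stood with Csn3 and Abo as the genes with the lowest ob/+ levels. Tmem212, a membrane protein, was at 1.83, 1.75, 1.79 and 2.68 FPKM in ob/ob, against 0.65, 0.41, 0.33 and 0.16 FPKM in ob/+, and ob/ob 4 stood above the other ob/ob libraries. LOC100861615, a predicted gene without a known role, was at 2.83, 1.34, 1.99 and 2.15 FPKM in ob/ob, against 0.26, 0.93, 0.24 and 0.34 FPKM in ob/+. Glipr2, a Golgi-associated protein, was at 0.89 to 2.15 FPKM in ob/ob and 0.21 to 0.63 FPKM in ob/+, Ccdc85a at 1.23 to 2.26 FPKM in ob/ob and 0.41 to 0.61 FPKM in ob/+, and Pabpc1l, an oocyte poly(A)-binding protein, at 0.93 to 1.47 FPKM in ob/ob and 0.40 to 0.88 FPKM in ob/+.

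By role, the groups had like levels. The median ob/ob mean was 1.76 FPKM for the 7 transcription factors, 1.84 FPKM for the 13 secreted proteins, 1.54 FPKM for the 12 receptors and surface proteins, 1.53 FPKM for the 12 signalling proteins, 1.43 FPKM for the 11 transporters and channels, 1.40 FPKM for the 6 enzymes and 1.88 FPKM for the other 17. The corresponding median ratios to ob/+ ran from 2.76 for receptors and surface proteins to 4.33 for transcription factors.

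Between the ob/ob libraries the 78 genes had a median coefficient of variation of 19.4%, against 12.7% for the other 5920 genes with an ob/ob mean of 1 to 8 FPKM. The 2 sets were not matched by level, as the median ob/ob mean of the 78 was 1.69 FPKM. The part of level in this difference was not tested. In 43 genes the coefficient of variation was under 20% and in 9 at least 50%: Fosb, Oas2, Madcam1, Slc5a10, Atf3, Ly6d, Sval2, Rgs1 and Ly6c2. The library ob/ob 3 was the highest of the ob/ob libraries for 34 of the 78 genes (43.6%), ob/ob 1 for 16, ob/ob 2 for 14 and ob/ob 4 for 14. Of the 5920 other genes, 59.7% were highest in ob/ob 3, the library with the lowest total FPKM of the 4. Leaving out the highest ob/ob library moved the ob/ob mean by more than 1.5 times for 3 genes (Fosb, Madcam1 and Oas2) and took it under 1 FPKM for 13.

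Genes near the limits of the rule show how the set is bounded. At the ob/+ limit, Fam19a1 (0.995 FPKM), Rapgef5 (0.980 FPKM) and Cpne4 (0.968 FPKM) lay inside, and Krtap16-1 (1.02 FPKM), Jhy (1.02 FPKM) and Me3 (1.06 FPKM) outside. At the ob/ob limit, Slc22a2 (1.01 FPKM), Sval2 (1.03 FPKM) and Pcolce2 (1.04 FPKM) were inside, and Akap3 (0.998 FPKM), Gda (0.993 FPKM) and Tmem139 (0.970 FPKM) outside. Akap3, a sperm anchoring protein, averaged 0.055 FPKM in ob/+ and so had an 18.1-fold ratio. At the ratio limit of 2, Map3k7cl (2.03), Chek1 (2.04) and Gpr135 (2.06) were inside, and Pdzrn3 (1.997), Enpp6 (1.98) and Smim5 (1.96) outside. Plaur, Gmfg and Fosb passed the demand of no overlap by 0.02 to 0.03 FPKM, while Pglyrp1, whose lowest ob/ob library had 0.34 FPKM and highest ob/+ library 0.35 FPKM, missed it, as did Hist1h2bb (1.13 and 1.16 FPKM) and Pgam2 (0.76 and 0.79 FPKM). In all, 52 genes met the limits on level and ratio but overlapped between the genotypes.

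The expression limit for a test, at least 1 FPKM in at least 4 libraries, was passed by 53 of the 78 genes and missed by 25. The 53 passed through their ob/ob libraries and had to differ, so their limma calls are not given.

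Genomic position was found for 77 of the 78 genes on GRCm38 (GENCODE), LOC100861615 being unmatched and Fam179a placed under its current name Togaram2. Chromosome 1 held 7 of them, chromosomes 2, 7, 9 and 11 held 6 each, and chromosome 15 held 5. Pairs less than 1 Mb apart were Mro and Mapk4 (47.2 kb, chromosome 18), Rasal1 and Oas2 (50.7 kb, chromosome 5), Rhox3e and Rhox3g, Chek1 and Pknox2 (164 kb, chromosome 9), Ada and Pabpc1l (275 kb, chromosome 2), and Ly6d and Ly6c2 (345 kb, chromosome 15). The neighbours Rasal1 and Oas2 had unlike patterns over the ob/ob libraries, 1.61, 1.4, 1.8 and 1.2 FPKM for Rasal1 beside the single high library of Oas2. The median span from start to end was 30.3 kb, against 22.5 kb for 2812 other genes with an ob/+ mean of 0.1 to 1 FPKM and 24.1 kb for 11352 other tested genes; 11 members spanned at least 200 kb and 14 under 10 kb.

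Promoters of the 55 genes in the table resembled those of other genes of low level in CpG content. The median ratio of observed to expected CpG was 0.427, against 0.426 for 2071 other genes with an ob/+ mean of 0.1 to 1 FPKM and 0.738 for 9064 other tested genes. Promoters poor in CpG, with a ratio under 0.35, were 22 of 55 (40%), 42.3% and 12.8% in the same order. Among the promoters without any CpG were those of Chil6, Ly6c2 and Slc22a18, and among those with a high ratio those of Wnt5b, Vstm2a and Slc24a3.

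**Figure D5:**
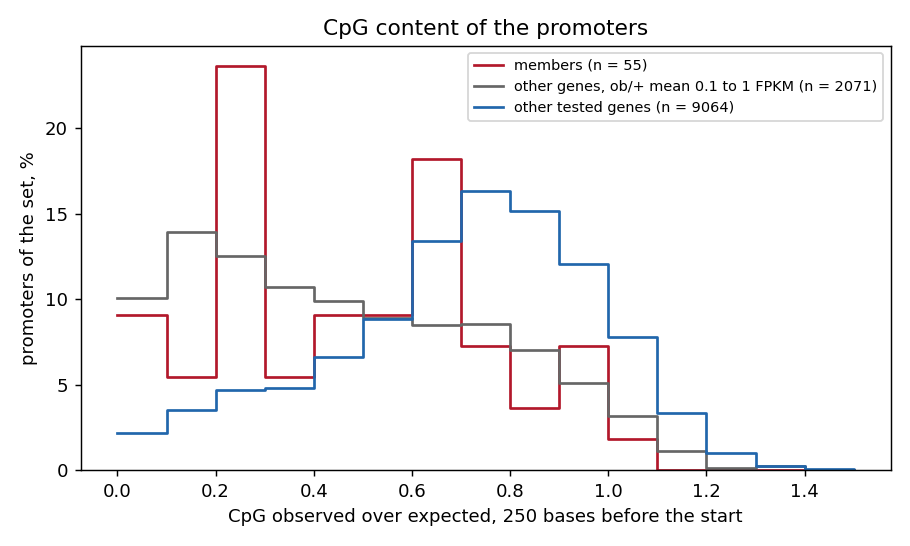
Share of promoters (vertical axis, %) by CpG observed over expected in the 250 bases before the start (horizontal axis), for 55 of the 78 genes (red), other genes with an ob/+ mean of 0.1 to 1 FPKM (grey) and other tested genes (blue). The red and grey lines have medians of 0.427 and 0.426, and the blue line, with a median of 0.738, lies further to the right.

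Other letters searched in the 55 promoters, on both strands, were those of the AP-1 site TGANTCA (3 promoters, 5.45%, against 6.87% of all promoters), the E-box CACGTG of the ChREBP and MYC type (2, 3.64%, against 6.05%), the GC box GGGCGG (28, 50.9%, against 32.9%), the CCAAT box CCAAT (14, 25.5%, against 34.5%), and the STAT5 motif TTCNNNGAA (4, 7.27%, against 7.18%). The ISRE core was in 3 (5.45%, against 3.04%), the MAF site TGCTGAC in 2 (3.64%, against 3.72%), the CArG box of serum response factor in 2 (3.64%, against 1.40%) and the HNF1 motif in 0. For the GC box, other low genes stood at 41.1% and other tested genes at 60.4%. In the same order the shares were 35.3% and 36.1% for the CCAAT box, 6.13% and 8.62% for the E-box and 6.42% and 4.10% for the AP-1 site. The searched motifs overlap where they share letters, as TGACGTCA and its core do.

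Further lists of other cell types and pathways hold none of the 78 genes, and their counts describe the tissue in which the genes were measured; over all tested genes 18.8% were called, 8.21% higher and 10.6% lower. Of 22 tested beta cell maturity genes 2 rose and 8 fell, of 11 alpha cell markers 3 rose and 6 fell, and of 7 delta, PP and epsilon cell markers 0 rose and 7 fell. Limma called 0 of 27 acinar markers (3 at an unadjusted p under 0.05) and 0 of 11 endothelial markers (0 at an unadjusted p under 0.05). Of 10 duct and mesothelial markers 3 rose and 1 fell, of 11 stellate and mesenchymal markers 2 rose and 4 fell, of 6 neuron and Schwann cell markers 5 fell, and of 3 adipocyte markers 1 fell. Neuron and Schwann cell markers summed to 24.8 to 30.5 FPKM in ob/ob and 49.0 to 63.3 FPKM in ob/+. Of 9 enteroendocrine and gut genes 3 rose and 1 fell, but 2 of the 3, Cck and Gast, met the values of the rule and were left out by name, so their calls follow from it. Of 15 peptide ligands 5 rose and 6 fell, of 15 prolactin, STAT5 and serotonin genes 1 rose and 3 fell (26.7% called), of 25 ER folding genes 8 rose, and of 17 PPAR alpha and fatty acid oxidation genes 1 rose and 1 fell (11.8% called).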

How the data were processed

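The deposited values are read as FPKM per gene; neither the labels nor the file headers name the unit, which was inferred from the values (2 decimals, library sums that differ, low values that step with transcript length). The submitters' processing notes name DESeq2 1.20.0, Trimmomatic 0.36 and the builds GRCm38 and mm10, with no role. Aligner, quantifier and strandedness are not given in the sources used. FPKM is relative to the library total, so a larger share of insulin or acinar RNA lowers the values of other genes.

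The 78 members were found by applying the rule to the FPKM values; genes without a value were left out. The members and all gene lists were chosen with earlier results of these data known, so no pattern in them is independent support. Where at least 4 libraries reached 1 FPKM, a gene entered a limma fit on log2(FPKM + 1) (limma 3.58.1, statmod 1.5.0 and R 4.3.3, with trend and robust eBayes), ob/ob against ob/+, two-sided, with Benjamini-Hochberg adjustment over all 11747 tested genes and a threshold of 0.05. The log2 differences understate the change of low genes. Limma results are given for genes outside the 78. The naming rule gave levels in every library to the 30 members with the highest ob/ob mean and the 10 with the largest ratio (ob/+ means raised to at least 0.01 FPKM), and named up to 4 non-members of a list by smallest p. Further non-members, such as Inhbb, Vip and the B cell markers, were picked after their values were seen. At most 2.79% of non-zero values were identical between any 2 libraries, so none was a duplicate. Sequences and promoters are from RefSeq (GRCm38.p6) and positions from GENCODE on GRCm38. Python 3.11.15 with pandas 2.3.3, SciPy 1.17.1 and matplotlib 3.10.9 was used. Alternatives covered the limits of the rule, the scaling, the pseudocount, the filter, a replicate block and leaving out each library. A listed marker gene is not reported here by name and stayed in the list's sum.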

Additional observations from a re-analysis of the deposited data

Results flagged for a closer look

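Of 156 groups of 4 libraries (78 genes in each genotype), 9 held a library that stood far from the other 3 by Dixon's test at the 95% level, and chance alone marks about 1 in 20 groups. In ob/ob these were ob/ob 2 for Oas2, an interferon-induced gene, at 3.75 FPKM and for the kinase Stk33, where it was the lowest at 1.01 FPKM. Ly6c2, a monocyte and T cell surface gene, stood out in ob/ob 3 at 2.15 FPKM, Tmem212 in ob/ob 4 at 2.68 FPKM, and Slc22a4, a carnitine and ergothioneine transporter, in ob/ob 1 as the lowest at 2.31 FPKM. In ob/+ the library ob/+ 2 was the lowest for Fam179a at 0.63 FPKM and the highest for LOC100861615 at 0.93 FPKM. Snx20, a leukocyte sorting nexin, was high in ob/+ 1 at 0.73 FPKM, and Csn3 had its single value above 0, 0.03 FPKM, in ob/+ 4. Of the 9 groups, 5 were of ob/ob and 4 of ob/+.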

How the results depend on the processing

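The number of genes that meet the rule, 78, moved with its limits: 38 with an ob/+ mean under 0.5 FPKM, 27 with an ob/ob mean of at least 2 FPKM, 30 with a ratio of at least 4 and 130 with overlap allowed. It was 41 when values were rescaled to the sum without acinar markers, a scaling that lowers ob/ob levels relative to ob/+, and 70 to 141 when each library was left out in turn, 141 without ob/ob 1 (76 of the 78 among them). Without both ob/ob 1 and ob/+ 4, the richest in acinar RNA of each genotype and a choice made after seeing the data, it was 126, with 65 of the 78. Under the 4 scalings and 8 omissions together, 41 of the 78 were kept each time. Genes called by limma, 2208 (43.7% higher), numbered 3406 under median centring and 3406 under upper-quartile scaling, and 7334 (6.56% higher, median log2 difference −0.32) under the sum without acinar markers. Without the 10 most abundant genes in the sum, 67.3% of calls were higher. Leaving out each library gave 1434 (without ob/+ 1) to 4832 (without ob/+ 4) calls. Calls on the fixed lists, 90, became 139 under the sum without acinar markers and ran from 78 to 112 over the omitted libraries. Of 680 recounts of a single list in a single direction 82 moved, 56 up and 26 down, and of 286 refits of a named gene 21 lost and 8 gained the threshold, with 0 turned in sign; the cause was not tested. The acinar share difference of −6.95 percentage points ran from −9.06 to −3.50 over the omitted libraries. Same-numbered libraries of the genotypes correlated at −0.22, 0.21, 0.17 and 0.12 in their deviations, and libraries of unlike number at −0.19 to 0.19. Deviations over so few libraries cannot decide whether the numbers pair them. With a replicate block limma called 2674 genes and 100 on the fixed lists, against 2208 and 90 without it.

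Depth is unknown and levels were near 1 FPKM, so few reads stand behind the ob/+ values, and no interval for counting error is given. Membership of genes near a limit is decided by hundredths of an FPKM. Libraries are not labelled as separate mice, and bulk RNA does not separate cell number from RNA per cell.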
